A study of Mus musculus with 8 samples.

Results

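The response of wild-type (WT) macrophages to LPS plus IFN-γ was taken from the 2 WT M1 arrays set against the 2 WT unstimulated arrays, 4 of the 8 arrays of the series. The groups were chosen from the sample labels alone, and all probes of the array were read. Bone marrow cells of female C57bl/6J mice aged 8 weeks were cultured over 7 days with GM-CSF into macrophages, and were then left unstimulated or given LPS at 200 ng/ml together with IFN-γ at 10 ng/ml over 6 h (M1). The other 4 arrays held iNOS-/- cells grown and treated in the same 2 ways, and entered the estimate of the spread and a test of the difference in response. The labels give the same strain for these mice, and the study's methods the line B6.129P2-Nos2tm1Lau/J, a targeted Nos2 allele. The labels do not say whether the arrays of a group came from separate mice, so all p-values measure the spread between arrays, which may be technical. The question for the WT arrays was which mRNAs the combined stimulus raised or lowered after 6 h.

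LPS is a cell wall component of Gram-negative bacteria that macrophages sense through CD14, MD-2 (encoded by Ly96) and TLR4. The adaptors MyD88 and TRIF then lead to the NF-kB, AP-1 and IRF transcription factors and to inflammatory cytokines and type I interferon. IFN-γ is a T cell and NK cell cytokine that acts through the kinases JAK1 and JAK2 and on GAS elements of target promoters, and type I interferon acts through a factor complex with IRF9 that binds the interferon-stimulated response element (ISRE). Macrophages given both stimuli are called M1 or classically activated and are known for microbe killing, IL-12 and antigen presentation. GM-CSF cultures of bone marrow also hold cells with features of dendritic cells.

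Values below are log2 intensities after scaling of every array to the mean of all arrays, and a difference is WT M1 minus WT unstimulated on that log2 scale. A probe counted as detected on an array where its detection p-value was under 0.05, and a probe was called where the adjusted p of limma was under 0.05. Between 12053 and 12513 of the 25697 probes were detected on each WT array. The median absolute difference between arrays was 0.16 within WT unstimulated and 0.18 within WT M1, against 0.52 to 0.53 between the groups, so that the stimulus separated the WT arrays by more than the spread within a group. The iNOS-/- unstimulated arrays stood 0.34 to 0.36 from the WT M1 arrays and 0.48 to 0.49 from the WT unstimulated arrays. The probe of Nos2, the gene targeted in iNOS-/- mice, read 0.079 and 0.00 on the WT unstimulated arrays and 0.97 and 1.87 on those labelled iNOS-/- unstimulated, undetected on all 4, and 7.47 and 7.05 on the WT M1 arrays and 7.49 and 7.67 on those labelled iNOS-/- M1. It was thus not lower on the arrays labelled iNOS-/-. Whether the probe lies within the deleted part is not given in the sources used here, so the genotype labels could not be checked. The number of arrays limits the precision of every value.

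Of 13868 probes tested, 4869 were called in WT cells (35.1%). Of these, 2885 were higher in M1 cells (20.8% of those tested) and 1984 were lower (14.3%). The rises were also larger, with 1491 probes higher by 2-fold or more against 611 lower. Among probes detected in both groups, 47 rose by 16-fold or more and 0 fell that far. A further 332 probes called higher were detected on both M1 arrays and neither unstimulated array, and 86 called lower went the other way. In bulk samples, a change in the number of cells of a type and a change in RNA per cell cannot be told apart.

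The balance of rises and falls depended on the scaling. Rises made up 59.3% of calls here, 49.0% with an intercept in the scaling line, 47.4% after quantile normalization and 44.4% after neqc. These settings moved the median difference of all tested probes from 0.089 to −0.096, −0.062 and −0.035. With only the 4 WT arrays in the fit, 3770 probes were called, of which 59.6% were higher. Differences as small as these shifts have no settled direction, and the medians of the lists below stand beside a median of 0.089 over all tested probes. Counts of called list members stand beside shares of 20.8% higher and 14.3% lower over all tested probes.

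**Figure D1:**
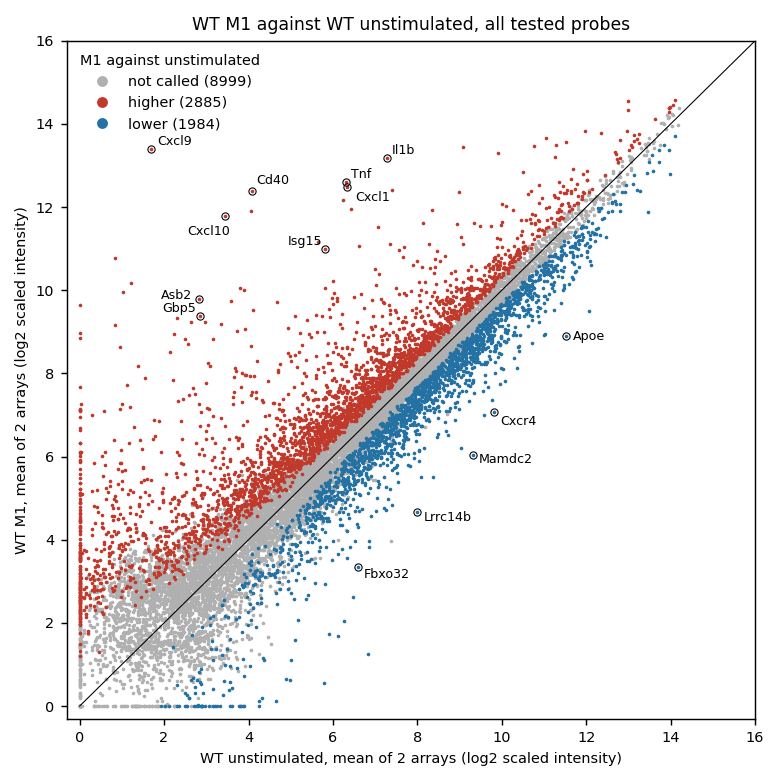
Each point is a tested probe, placed by its mean log2 scaled intensity on the 2 WT unstimulated arrays (x axis) and the 2 WT M1 arrays (y axis), and coloured by its call (2885 higher, 1984 lower); the line marks equal values and circled genes are named. The probes farthest above the line lie farther from it than the probes farthest below it.

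**Figure D2:**
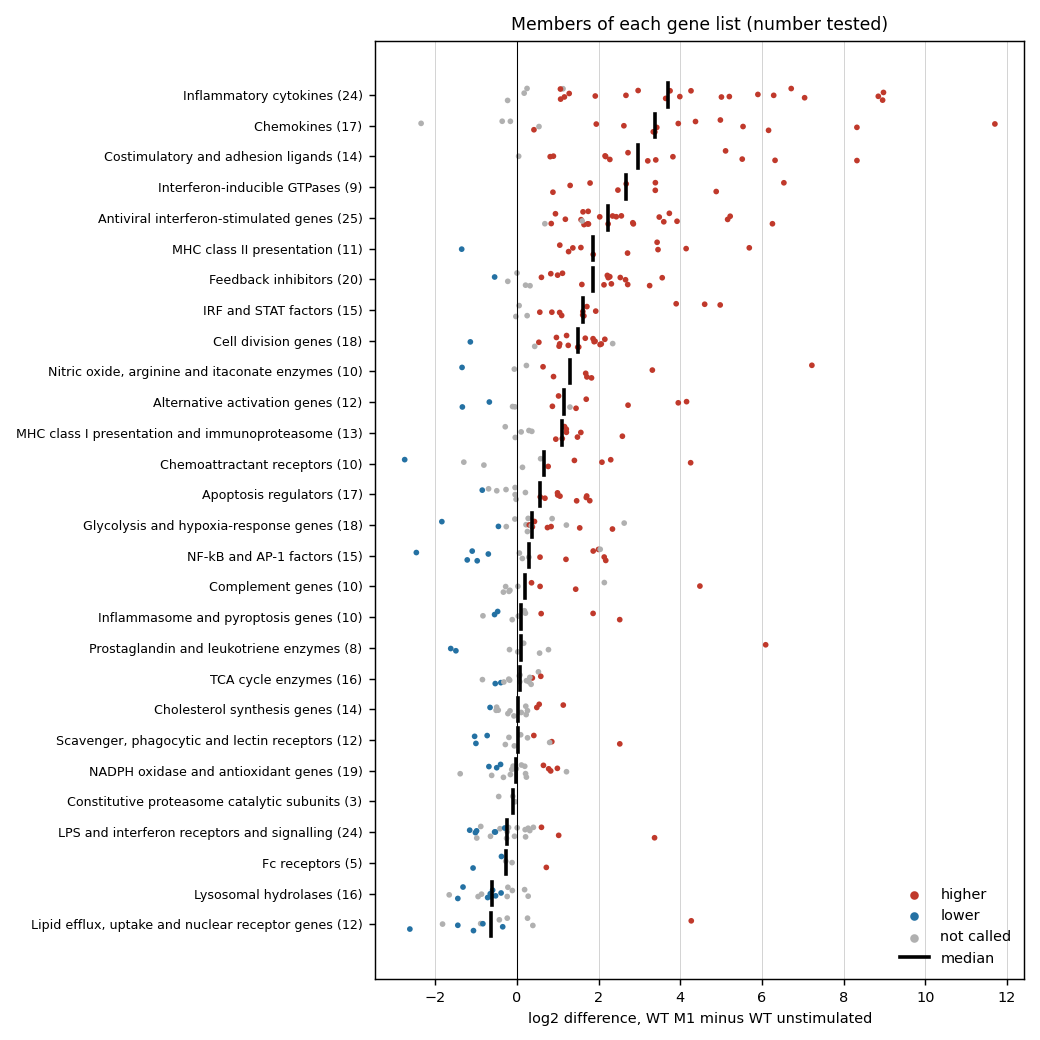
Log2 difference of WT M1 minus WT unstimulated for the tested members of 28 gene lists, 1 point per gene coloured by its call, with the median as a black bar and the number of tested members in brackets. As fitted, the cytokine median is 3.69 and the chemokine median 3.38 (2.31 and 3.34 with undetected members at their bounds, and 2.50 for the costimulatory list), and the lysosomal and lipid lists lie at −0.62 and −0.63.

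The largest rise among probes detected on all 4 WT arrays was that of Cd40, the TNF-family receptor through which T cells stimulate antigen-presenting cells. Its probe read 4.11 and 4.04 on the unstimulated arrays and 12.38 and 12.41 on the M1 arrays, a 320.3-fold rise (difference 8.32 ± 0.079 SE, adjusted p = 7.19e-06). Both M1 arrays stood far above both unstimulated arrays, and 4 of 4 tested Cd40 probes were called higher. Cxcl10, the chemokine that draws CXCR3-bearing T cells, rose as far, with 3.63 and 3.27 on the unstimulated arrays and 11.77 and 11.78 on the M1 arrays (320.1-fold, adjusted p = 1.20e-05). Serpina3g, a serine protease inhibitor of lymphoid and myeloid cells, gave 4.36 and 3.73 on the unstimulated arrays and 11.87 and 11.96 on the M1 arrays (234-fold, adjusted p = 3.95e-05).

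Asb2, the substrate-binding part of a ubiquitin ligase, went from 3.11 and 2.54 to 9.82 and 9.76 (125-fold, adjusted p = 3.88e-05). Tnf, the inflammatory cytokine, went from 6.42 and 6.21 to 12.64 and 12.56 (78-fold, adjusted p = 1.79e-05). In these genes, too, no unstimulated array came near an M1 array. The other genes among the 10 largest rises were the guanylate-binding protein gene Gbp5 (92.7-fold), the oligoadenylate synthetase-like gene Oasl1 (77.1-fold), the neutrophil chemokine gene Cxcl1 (71.5-fold), Asgr2, a subunit of the asialoglycoprotein receptor (71.2-fold), and Ccnd2, which encodes cyclin D2 (69.2-fold). Their adjusted p-values lay between 1.21e-05 and 2.36e-04. Asgr2 had the widest spread of these, with 3.06 and 4.12 on the unstimulated arrays. For Asb2 and Gbp5 the unstimulated values lay near the lowest detected values of those arrays (2.52 and 2.47), so the folds depend on the processing. The lowest differences over the settings tried were 5.26 for Asb2 (6.97 as fitted) and 4.84 for Gbp5 (6.53 as fitted).

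For probes detected on neither unstimulated array the rise is a bound, the M1 mean set against the detection limit of the unstimulated arrays. Il6, the acute-phase cytokine, read 10.15 and 10.17 on the M1 arrays, at least 204-fold above that limit (adjusted p = 1.96e-05). Il12a, which encodes the p35 subunit of IL-12, read 8.90 and 9.05 (at least 89.3-fold, adjusted p = 1.03e-04). Tnfsf15, a TNF-family ligand, rose at least 81.8-fold and Il2ra, the α chain of the IL-2 receptor, at least 37.6-fold. The apolipoprotein L family gene Apol7c (at least 176-fold), the serpin gene Serpina3f (143-fold), the ADAM family gene Adam23 (101-fold), the membrane peptidase gene Dpp4 (70.9-fold) and the activin-binding protein gene Fst (51.6-fold) were also among the 10 largest bounds, beside a second Cd40 probe (313-fold). On the unstimulated arrays these probes read 0 to 2.07, and on the M1 arrays 7.60 to 10.83.

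The falls were smaller. Apoe, which encodes the lipid carrier apolipoprotein E, went from 11.49 and 11.56 to 8.84 and 8.97, a 6.15-fold fall (adjusted p = 8.50e-05). Cxcr4, the receptor for the marrow-retention chemokine CXCL12, went from 9.91 and 9.72 to 6.95 and 7.19 (6.72-fold, adjusted p = 1.20e-04). Gas6, a ligand of the AXL and MERTK receptors used in the uptake of dying cells, went from 9.13 and 8.94 to 6.31 and 6.08 (7.15-fold, adjusted p = 9.06e-04). In each of these the lower unstimulated array lay above the higher M1 array by more than 2 log2 units.

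Nr1d2 (8.19-fold) and Dbp (6.01-fold), also among the 10 largest falls, encode transcription factors of the circadian clock. The largest of all was Lrrc14b, from 7.91 and 8.08 to 4.49 and 4.83 (10.1-fold, adjusted p = 1.25e-04). Mamdc2 (9.61-fold), Fbxo32, an F-box gene known from muscle wasting (9.49-fold), Nlrc3, an NLR-family inhibitor of innate signalling (7.38-fold, adjusted p = 0.0317), and Slc27a6, a fatty acid transporter gene (6.9-fold, adjusted p = 0.0272), made up the rest. The calls of Nlrc3 and Slc27a6 held in 10 and 11 of 18 alternative settings. Both were lost without the detection filter and when any 1 WT or iNOS-/- unstimulated array was left out.

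Among probes that fell below detection on both M1 arrays, Gm14461 fell at least 16.6-fold and Prokr1, a prokineticin receptor gene, at least 12.9-fold. Thbd, which encodes the anticoagulant receptor thrombomodulin, went from 5.38 and 5.32 to undetected (at least 5.95-fold, adjusted p = 1.73e-04). The bounds of a second Fbxo32 probe (10.1-fold), Fam110c (8.07-fold), the T cell adaptor gene Lat (4.95-fold), the nicotinamide methyltransferase gene Nnmt (4.71-fold), Prss46 (4.61-fold), the lysozyme gene Lyz1 (4.3-fold) and Coa7 (3.74-fold) lay between 3.74-fold and 10.1-fold. Lyz1 is a close relative of Lyz2, and another tested Lyz1 probe was called higher, so its direction is unsettled.

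**Figure D3:**
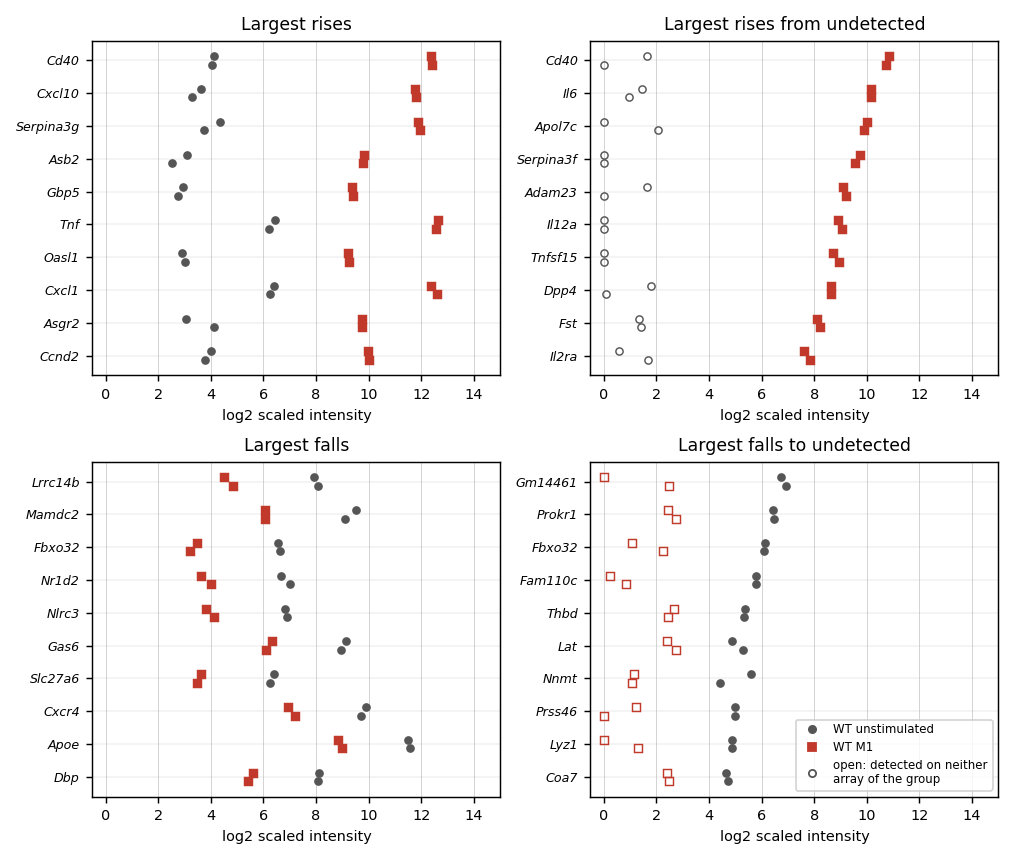
Log2 scaled intensity on each WT array (circles, 2 unstimulated arrays; squares, 2 M1 arrays) of the 10 genes with the largest rise, rise from undetected, fall and fall to undetected; open symbols mark a group whose probe was detected on neither array. The groups do not overlap in any row, which the choice of genes requires, and the gaps of the rises are wider than those of the falls.

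Inflammatory cytokine genes rose together: 20 of 24 tested members were called higher and 0 lower, with a median difference of 3.69, or 2.31 with members that a group did not detect at their bounds. Il1b, the pyrogen that the inflammasome processes, went from 7.30 and 7.27 to 13.10 and 13.28 (59.7-fold), and Il1a from 7.43 and 7.38 to 12.40 and 12.43 (32.1-fold). Il1rn, the antagonist of both at their receptor, rose 3.78-fold. Of the IL-12 family, Il12a and Il23a (at least 9.59-fold) encode the α chains of IL-12 and IL-23, and Il27 that of IL-27. Il27 read 2.99 and 1.47 on the unstimulated arrays, of which the second was undetected, and 8.99 and 8.89 on the M1 arrays (adjusted p = 0.00273). Ebi3, the β chain of IL-27, went from 8.41 and 8.45 to 9.47 and 9.53 (2.1-fold).

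Il12b, the p40 chain of IL-12 and IL-23, was detected on 1 M1 array and on neither unstimulated array (at least 1.61-fold). This call was lost with a floor of 16, with an intercept and after neqc. Ifnb1, the type I interferon that LPS elicits, read 5.78 and 5.83 on the M1 arrays and rose at least 9.95-fold. The colony-stimulating factor genes Csf1 (2.43-fold) and Csf2 (at least 2.29-fold) were called higher, and Csf3 was not, at 3.47 and 3.36 on the unstimulated arrays and 3.43 and 2.94 on the M1 arrays. Inhba, the activin A subunit, went from 7.23 and 7.49 to 11.08 and 11.13 (13.4-fold). Edn1, which encodes the vasoconstrictor endothelin-1, went from 1.85 and 2.74, of which the first was undetected, to 9.39 and 9.29 (adjusted p = 9.90e-05). Il10, the anti-inflammatory cytokine, and Tnfsf10 were not detected on any WT array, and Osm was not called (9.17 and 9.17 against 9.26 and 9.44).

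Chemokine genes rose in 13 of 17 tested members and fell in 0, with a median difference of 3.38, or 3.34 at bounds; neqc and the floor of 16 each called 3 lower and quantile normalization 2. Cxcl9, a ligand of CXCR3 like CXCL10, read 0.82 and 2.58 on the unstimulated arrays, of which 1 was above detection, and 13.37 and 13.42 on the M1 arrays (adjusted p = 1.55e-04). The neutrophil attractants Cxcl1 and Cxcl2 rose from 6.42 and 6.24 to 12.38 and 12.59 and from 6.49 and 6.35 to 11.87 and 12.04. Of the CCL group, the monocyte attractants Ccl2 and Ccl7 rose 10.7-fold and 10.1-fold, and the inflammatory chemokines Ccl3, Ccl4 and Ccl5 rose 3.84-fold, 6.14-fold and 10.4-fold.

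Ccl17 and Ccl22, ligands of CCR4 often named as markers of alternative activation, rose as well, Ccl17 from 9.05 and 9.12 to 13.42 and 13.49 (20.7-fold, adjusted p = 1.79e-05) and Ccl22 from 0.00 and 2.85, of which the first was undetected, to 6.61 and 6.21. Ccl6, Ccl9 and Cxcl14 were not called here, with differences of −0.36, −0.16 and −2.35, the last with M1 arrays far apart (3.12 and 0.87). Cxcl3 was undetected on all 4 WT arrays. Of 10 tested chemoattractant receptor genes, 5 were called higher and 1 lower, against 20.8% and 14.3% of all tested probes. Ccr7, which guides dendritic cells to lymph nodes, went from 3.49 and 3.84 to 8.06 and 7.78 (19.1-fold), opposite to Cxcr4. The formyl peptide receptor genes Fpr1 (2.65-fold) and Fpr2 (4.23-fold) and the leukotriene B4 receptor gene Ltb4r1 (4.91-fold) were also higher.

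**Figure D4:**
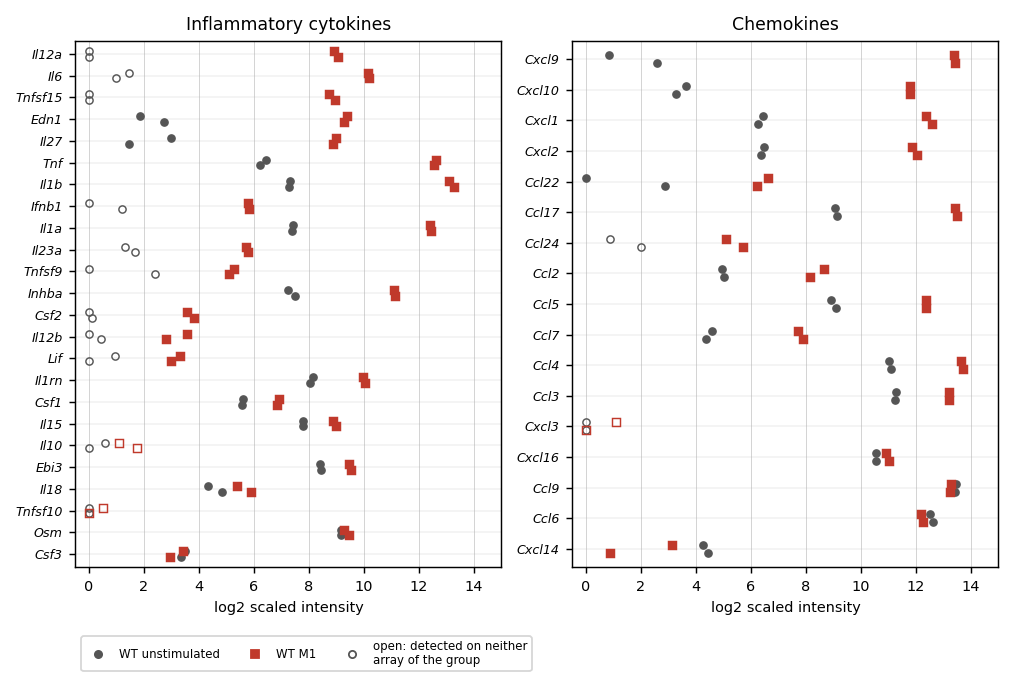
Log2 scaled intensity on each of the 4 WT arrays for the tested cytokine and chemokine genes, ordered by their difference (circles, unstimulated; squares, M1; open symbols, detected on neither array of the group). In most rows both squares lie right of both circles, and in the rows of Osm, Csf3, Ccl6 and Ccl9 the means of the groups lie within 0.37 log2 units of each other.

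Interferon-stimulated genes of the antiviral state were called higher in 23 of 25 tested members and lower in 0, with a median difference of 2.23, or 2.03 at bounds. Isg15, a ubiquitin-like modifier, went from 5.95 and 5.70 to 11.00 and 10.96 (35.7-fold), and Mx1, a GTPase that blocks influenza virus, from 3.55 and 2.51 to 8.26 and 8.24 (37.3-fold). The groups were far apart in both. Ifit2 (13.3-fold), an RNA-binding inhibitor of translation, Rsad2 (12.1-fold), which encodes viperin, and Usp18 (7.14-fold), the protease that removes ISG15, followed. The cytosolic RNA sensors Ddx58, Ifih1 and Dhx58 rose 2.97-fold, 3.32-fold and 5.07-fold. The oligoadenylate synthetase genes Oas1a, Oas1g, Oas2 and Oas3 rose between 2.27-fold and 5.88-fold. Ifi44 and Rtp4 were the members not called, with differences of 0.68 and 1.60.

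All 9 tested interferon-inducible GTPase genes, which act on the vacuoles of intracellular microbes, were called higher (median 2.68, or 2.47 at bounds). Gbp5, which promotes inflammasome assembly, went from 2.94 and 2.76 to 9.37 and 9.40, and Gbp2 from 9.96 and 9.88 to 13.22 and 13.39 (10.5-fold). The immunity-related GTPase genes Igtp and Irgm2 rose 6.39-fold and 3.46-fold, and Irgm1, a regulator of the others, 1.84-fold. Probes of such multigene families can take up related transcripts, which was not tested.

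The promoters of some of these genes hold the sequences that interferon and NF-kB factors are known to bind, and are shown because their genes rose together. Every promoter shown holds a match, and the shares over all genes are counted below. The stretches before the annotated start are from RefSeq (build GRCm38.p6), written 5′ to 3′ on the gene's strand, with 250 bases for Cxcl10 (chr5:92348890-92349139, minus strand) and Gbp5 (chr3:142496684-142496933, plus) and 120 for Igtp (chr11:58199436-58199555, plus), Isg15 (chr4:156200819-156200938, minus), Socs1 (chr16:10785537-10785656, minus), Cxcl1 (chr5:90891125-90891244, plus) and Il6 (chr5:30012994-30013113, plus). Capitals mark matches, on either strand, to 3 short patterns: the ISRE core, GAAA followed after any 2 bases by another GAAA; the GAS core, TTCNNNGAA; and the kB core, GGG followed after any 3 bases by TTCC.
Cxcl10: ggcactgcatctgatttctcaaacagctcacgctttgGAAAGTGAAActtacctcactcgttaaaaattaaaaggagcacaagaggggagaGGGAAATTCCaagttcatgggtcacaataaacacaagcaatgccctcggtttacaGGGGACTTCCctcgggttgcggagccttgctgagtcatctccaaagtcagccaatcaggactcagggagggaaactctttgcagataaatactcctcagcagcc
Gbp5: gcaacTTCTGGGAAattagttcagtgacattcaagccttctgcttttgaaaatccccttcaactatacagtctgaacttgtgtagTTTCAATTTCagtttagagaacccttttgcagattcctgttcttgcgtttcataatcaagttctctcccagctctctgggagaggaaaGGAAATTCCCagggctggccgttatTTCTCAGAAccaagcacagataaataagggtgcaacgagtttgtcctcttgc
Igtp: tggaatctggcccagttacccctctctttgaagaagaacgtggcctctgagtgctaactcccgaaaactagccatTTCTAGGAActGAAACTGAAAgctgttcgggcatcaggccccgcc
Isg15: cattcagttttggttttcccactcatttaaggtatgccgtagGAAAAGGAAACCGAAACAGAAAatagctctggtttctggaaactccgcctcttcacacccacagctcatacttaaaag
Socs1: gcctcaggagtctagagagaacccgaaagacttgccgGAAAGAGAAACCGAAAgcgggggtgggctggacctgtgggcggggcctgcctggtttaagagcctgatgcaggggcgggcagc
Cxcl1: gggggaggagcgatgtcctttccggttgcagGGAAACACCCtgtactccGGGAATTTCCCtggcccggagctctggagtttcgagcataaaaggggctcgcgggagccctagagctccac
Il6: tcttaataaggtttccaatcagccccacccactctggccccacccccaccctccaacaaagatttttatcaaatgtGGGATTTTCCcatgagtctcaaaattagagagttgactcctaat

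In Cxcl10 the ISRE core begins 213 bases before the start and the 2 kB cores at 159 and 104. Gbp5 holds all 3 patterns, an ISRE core at 165, GAS cores at 245 and 52 and a kB core at 77. In Igtp a GAS core (45 to 37 bases before the start) is followed after a gap of a few bases by an ISRE core (34 to 25). Isg15 has 3 overlapping ISRE cores, at 78, 72 and 66, and Socs1 has 2, at 83 and 77. Cxcl1 has kB cores at 89, 71 and 70, of which the last pair overlap, and Il6 has 1 at 44.

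The patterns were counted in the RefSeq windows of 300 bases, from 250 before to 50 after the start, which were matched for 7501 of 10154 tested genes. The ISRE core was in 3.44% of all 32851 windows. A window of the gene held it for 4.09% of the tested genes, 5.99% of genes called higher, 3.90% of genes called lower and 11.3% of the 177 called higher by 8-fold or more. Of the listed genes with a window, it was found for 7 of 8 GTPase genes, 10 of 17 antiviral genes and 1 of 15 cytokine genes. It was found for 0 of 8 costimulatory genes, 0 of 10 NF-kB and AP-1 genes and 0 of 14 cell division genes. The kB core was in 5.56% of all windows, and was found for 7.32% of the tested genes, 8.60% of those called higher and 6.10% of those called lower. It was found for 11.9% of the 177 called higher by 8-fold or more, 5 of 10 chemokine genes and 4 of 15 cytokine genes. The kB core was found for 0 of 8 costimulatory genes and 0 of 8 MHC class II genes. The GAS core, the shortest pattern, was in 8.30% of all windows and was found for 8.53% of the tested genes. It was found for 9.36% of genes called higher, 9.31% of those called lower and 14.1% of the 177 called higher by 8-fold or more. Of the lists, 4 of 8 GTPase genes, 7 of 17 antiviral genes and 0 of 15 cytokine genes held it. Of the 59 genes called lower by 4-fold or more, 6.78% held the ISRE core, 6.78% the GAS core and 5.08% the kB core. A match is a stretch of letters and not a measured binding site.

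Genes of the interferon regulatory factors and STATs were called higher in 12 of 15 tested members and lower in 0 (median 1.61). Irf7, the amplifier of type I interferon, went from 3.76 and 3.54 to 7.48 and 7.61 (14.9-fold), and Batf2, a partner of IRF1, from 4.22 and 3.91 to 8.74 and 8.59 (24.2-fold). Both lay well above the spread of the arrays. Stat2 and Irf9, which act in type I interferon signalling, rose 3.06-fold and 1.81-fold. Irf1, an early IFN-γ target, rose 2.06-fold, from 10.75 and 10.57 to 11.73 and 11.68. Irf5, a factor known for M1 cytokine genes, rose 2.14-fold (9.20 and 9.20 to 10.38 and 10.22), Irf4 3.11-fold and Irf8 3.28-fold. Irf2, Irf3 and Stat6, the factor of IL-4 signalling, were not called, with differences of −0.026, 0.053 and 0.25.

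Of the 15 tested NF-kB, AP-1 and EGR genes, 6 were called higher and 5 lower, against 20.8% and 14.3% of all tested probes. Of the NF-kB genes, Nfkb1 went from 8.62 and 8.70 to 10.80 and 10.87 (4.51-fold), and Rel, Nfkb2 and Relb rose 4.4-fold, 3.99-fold and 3.65-fold. Rela, the subunit present in resting cells, was not called (0.13). The 5 genes called lower encode immediate-early factors of the AP-1, ATF and EGR families. Fos went from 10.58 and 10.65 to 9.62 and 9.66 (difference −0.97 ± 0.11 SE, adjusted p = 0.00256) and Jun from 7.70 and 7.72 to 6.36 and 6.63 (−1.22). Atf3 (−1.09), Egr1 (−0.70) and Fosb (−2.46) were also called lower, and Junb (0.57) and Jund (1.20) higher. Batf (0.29), Maff (2.04) and Egr2 (0.06) were not called. None of these calls changed direction under a scaling tried. The calls of Egr1 and Fosb were lost when any 1 WT array was left out. That of Fosb held in 10 of 18 alternative settings, and was also lost, among others, without the detection filter and with replicate number as a block.

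Of 20 tested genes listed as feedback inhibitors or related regulators of both pathways, 15 rose and 1 fell (median 1.86). The effect of each product on the pathways was not tested. The cytokine signalling suppressors Socs1, whose promoter is shown above, Socs3 and Cish rose 4.71-fold, 6.55-fold and 6.31-fold. The IκB family genes Nfkbia, Nfkbib, Nfkbie and Nfkbiz rose 4.38-fold, 5.77-fold, 11.8-fold and 9.5-fold. Tnfaip3, which encodes the ubiquitin-editing enzyme A20, went from 6.84 and 6.96 to 9.06 and 9.17 (4.64-fold). Dusp1, a MAP kinase phosphatase, was the gene called lower (−0.55), while Dusp2 and Dusp16 rose 4.83-fold and 4.96-fold. Zfp36 and Irak3 were not called, with differences of 0.32 and 0.0018.

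**Figure D5:**
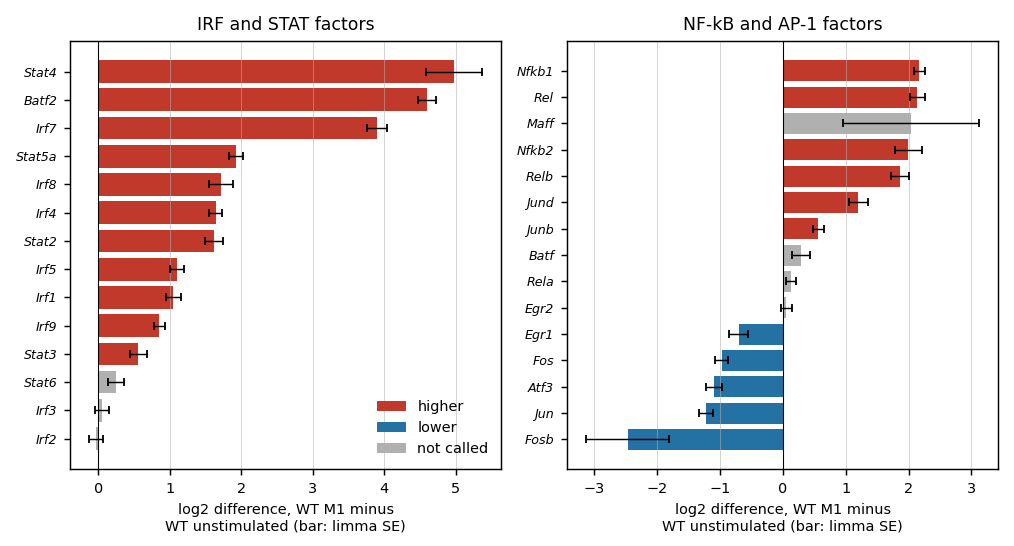
Log2 difference of WT M1 minus WT unstimulated for tested transcription factor genes, with bars for the limma standard error and colour for the call. IRF and STAT genes are higher or not called, and in the other panel the NF-kB genes Nfkb1, Rel, Nfkb2 and Relb lie above 0 and Fos, Fosb, Jun, Atf3 and Egr1 below it.

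Receptor and proximal signalling genes split. Of 24 tested, 3 were called higher and 6 lower (median −0.24), against 20.8% and 14.3% of all tested probes. The lower calls came to 3 or 4 when a WT array was left out and to 10 after neqc. Jak2, the kinase of the IFN-γ receptor, was the exception in size, from 7.72 and 7.63 to 10.97 and 11.11 (10.3-fold, adjusted p = 6.03e-05). Myd88 rose 2.03-fold. Tlr4 read 8.64 and 8.45 on the unstimulated arrays and 8.42 and 8.16 on the M1 arrays and was not called, and neither was Cd14 (0.40), Tlr2 (0.31) or the IFN-γ receptor genes Ifngr1 (0.27) and Ifngr2 (−0.059). Ly96 fell, from 9.26 and 9.42 to 8.35 and 8.36, and the endosomal receptor genes Tlr7 and Tlr13 fell 2.02-fold and 2.23-fold.

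Of 10 inflammasome genes, 3 were called higher and 2 lower, against 20.8% and 14.3% of all tested probes. Nlrp3, the sensor that LPS is known to prime, went from 2.95 and 2.47 to 5.15 and 5.30 (5.72-fold), and Casp4, the caspase that binds cytosolic LPS, from 7.33 and 7.37 to 9.18 and 9.25 (3.64-fold). The lowest Nlrp3 difference over the settings tried was 1.08, against 2.52 as fitted. The shared parts Casp1 (0.18), Pycard (0.034) and Gsdmd (0.21) were not called. With only the WT arrays in the fit, 2 were higher and 0 lower.

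For MHC class I presentation, 8 of 13 genes were higher and 0 lower (median 1.11). The peptide transporter genes Tap1 and Tap2 rose 5.98-fold and 2.16-fold, and the immunoproteasome genes Psmb8 and Psmb9 2.31-fold and 2.96-fold. Psmb5, Psmb6 and Psmb7, the constitutive subunits that the immunoproteasome replaces, were not called, with differences of −0.45, −0.10 and −0.044. The class I chains themselves were not called either, at 0.29 for B2m, 0.10 for H2-K1 and −0.041 for H2-T23.

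MHC class II genes rose in 10 of 11 (median 1.87). Ciita, their master regulator, went from 6.04 and 5.83 to 9.40 and 9.33 (10.8-fold). The class II chains H2-Aa, H2-Ab1 and H2-Eb1 rose 2.07-fold, 3.65-fold and 6.53-fold, and the invariant chain Cd74 2.96-fold. The peptide-editing genes rose as well, H2-DMa and H2-DMb1 2.4-fold and 2.58-fold, H2-DMb2 from 2.99 and 3.31 to 8.85 and 8.82 (51.5-fold) and H2-Oa, an inhibitor of H2-DM, 17.7-fold. Ctss, the cathepsin that trims the invariant chain, fell from 11.69 and 11.63 to 10.23 and 10.39 (difference −1.35 ± 0.15 SE, adjusted p = 0.00232).

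Costimulatory and adhesion genes were called higher in 13 of 14 (median 2.96, or 2.50 at bounds). Beside Cd40, the CD28 ligands Cd80 and Cd86 rose 10.5-fold and 4.51-fold. The PD-1 ligand genes rose unequally, Cd274 from 11.11 and 11.12 to 11.98 and 12.04 (1.86-fold) and Pdcd1lg2 from 3.54 and 3.70 to 7.57 and 7.31 (14.1-fold). Cd69, an early activation marker, rose 45.7-fold, Icam1, the ligand of LFA-1, 4.84-fold, and Tnfsf4, the OX40 ligand, at least 14.2-fold. Cd44 was not called (0.042).

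Nos2, which encodes the inducible nitric oxide synthase, was detected on neither unstimulated array and read 7.47 and 7.05 on the M1 arrays, a rise of at least 27.2-fold (adjusted p = 1.25e-04). Of the genes that supply it, Slc7a2, the arginine transporter, rose 3.54-fold, Gch1, which makes its tetrahydrobiopterin cofactor, 1.86-fold, and Ass1, which recycles citrulline, 1.56-fold, while Asl, the next enzyme of that recycling, was not called (0.23). Arg1, the arginase that competes for arginine, fell from 8.18 and 7.98 to 6.80 and 6.68 (2.54-fold, adjusted p = 0.00513), and Arg2 was not called (−0.064). Of the list, 7 of 10 were higher and 1 lower. Ido1, a tryptophan-degrading enzyme, rose 3.28-fold.

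Ptgs2, the inducible cyclooxygenase, was likewise detected on the M1 arrays alone (6.38 and 5.80, at least 12.1-fold), while Ptgs1 was not called (0.16). Hpgds and Ltc4s, which make prostaglandin D2 and leukotriene C4, fell 3.08-fold and 2.82-fold. Of 8 tested genes of this pathway 1 was higher and 2 lower, against 20.8% and 14.3% of all tested probes. The genes of the NADPH oxidase were not called higher, with Cybb at −1.39, Cyba at −0.33 and Ncf1 at −0.014 not called. Sod2, the mitochondrial superoxide dismutase, rose 1.71-fold, and the cystine transporter Slc7a11 1.99-fold. Over the 19 oxidase and antioxidant genes, 4 were higher and 3 lower, near the 20.8% and 14.3% of all tested probes. The lower calls came to 1 without WT M1 replicate 2 and 0 without any of the other 3 WT arrays.

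In glycolysis and hypoxia, 7 of 18 genes were called higher and 2 lower (median 0.36). Pfkp, a phosphofructokinase gene, went from 8.33 and 8.49 to 10.77 and 10.72 (5.06-fold), and Eno1 and Hk1 rose 1.79-fold and 1.68-fold. Hif1a (0.86), Slc2a1 (0.22) and Ldha (0.26) were not called. Without WT unstimulated replicate 1 or 2 the count of higher calls was 1 or 3, and without WT M1 replicate 1 or 2 it was 4 or 2. Vegfa, a hypoxia-induced angiogenic factor, fell from 9.99 and 9.96 to 8.05 and 8.21 (3.58-fold). Of 16 TCA cycle genes, 2 were higher and 2 lower, with no difference above 1 log2 unit in size, and the higher calls came to 1 when any WT array was left out. Over all tested probes the shares were 20.8% higher and 14.3% lower. Cholesterol synthesis genes were called higher in 3 of 14 and lower in 1, against the same shares. The count of higher calls was 1 after quantile normalization, with only the WT arrays and without WT M1 replicate 1 or either WT unstimulated array. Srebf2, the transcription factor of this pathway, rose 2.19-fold.

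Genes of lipid handling fell in 5 of 12 and rose in 1 (median −0.63, or −0.39 at bounds), and 9 were called lower after neqc. Beside Apoe, the nuclear receptor gene Pparg went from 9.09 and 8.88 to 7.66 and 7.41 (2.73-fold), and the transfer protein gene Pltp and the lipid droplet gene Plin2 fell 2.09-fold and 1.78-fold. Ch25h, the interferon-induced enzyme that makes 25-hydroxycholesterol, rose from 5.23 and 4.99 to 9.33 and 9.42 (19.3-fold). Lysosomal genes were called lower in 8 of 16 and higher in 0 (median −0.62). The cathepsin gene Ctsk fell 2.73-fold, the α-galactosidase gene Gla 2.5-fold and the hexosaminidase gene Hexa 1.55-fold. Ctsb (0.19) and Lamp1 (−0.11) were not called. The lower calls came to 3 without WT M1 replicate 2 or either WT unstimulated array, and to 11 after neqc. With only the WT arrays in the fit, 4 of the lysosomal genes were called lower.

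Genes used as markers of alternative activation did not move one way. Of 12, 7 were higher and 2 lower, against 20.8% and 14.3% of all tested probes. Chil3, a chitinase-like gene, fell from 11.47 and 11.46 to 10.09 and 10.17 (2.52-fold) and Retnla, which encodes RELMα, fell 1.6-fold. Mrc1, the mannose receptor, was not called (−0.05). The galactose-binding lectin genes Mgl2 and Clec10a rose, Mgl2 from 8.00 and 7.99 to 10.68 and 10.75 (6.59-fold), and Cd209a and Ccl24 rose from undetected (at least 5.58-fold and 7.48-fold).

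Among opsonin and uptake genes, complement factor B (Cfb) rose 2.71-fold and the C1 inhibitor gene Serping1 at least 3.96-fold, with 4 of 10 complement genes higher and 0 lower (2 lower after neqc or quantile normalization). C3 was not called (0.024). Of 5 Fc receptor genes 1 was higher and 2 lower, as Fcgr1, the high-affinity IgG receptor, rose 1.65-fold and Fcgr4 fell 2.11-fold. Fcgr2b was called lower by the probe used here and higher by another. Of 12 scavenger, phagocytic and lectin receptor genes, 3 were higher and 3 lower. These counts and those of the Fc receptor genes stand against 20.8% and 14.3% of all tested probes. Clec4e, which encodes Mincle, went from 7.23 and 7.15 to 9.64 and 9.78 (5.73-fold), and Clec4d and the β-glucan receptor gene Clec7a fell 2.05-fold and 1.66-fold. The TAM receptor gene Axl rose 1.81-fold while Mertk was not called (−0.28), beside the fall of their ligand Gas6.

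Genes of cell division were called higher in 15 of 18 and lower in 1 (median 1.50, or 1.37 at bounds). Top2a, the topoisomerase of dividing cells, went from 6.40 and 6.38 to 8.38 and 8.53 (4.18-fold), and Birc5, which encodes survivin, from 6.94 and 7.04 to 9.13 and 9.15 (4.44-fold). The mitotic genes Plk1 and Kif11 rose 3.64-fold and 3.7-fold, and the replication licensing genes Mcm2 and Mcm5 3.19-fold and 2.81-fold. Pcna, the replication clamp, was the gene called lower, from 7.26 and 7.02 to 5.94 and 6.06 (2.21-fold). Of 17 apoptosis genes, 9 were higher, among them Bcl2l1 (3.25-fold), which encodes the survival protein BCL-XL, and Pmaip1 (3.44-fold), which encodes the MCL-1 antagonist NOXA. Mcl1 itself was the 1 gene called lower (1.8-fold). Over all tested probes the shares were 20.8% higher and 14.3% lower.

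Markers of the cultured cells were checked in the same arrays. All 10 macrophage markers were detected in both WT groups, with 4 called higher and 1 lower and a summed intensity of 32352 to 32574 unstimulated and 34869 to 36969 in M1 cells. Adgre1, which encodes F4/80, read 11.38 and 11.29 on the unstimulated arrays and 11.19 and 11.25 on the M1 arrays and was not called. The macrophage marker called lower was Cd68 (difference −1.004), and the largest rise among these markers was that of Csf2rb (1.425). Both calls held in every alternative setting. Dendritic cell markers were called higher in 5 of 7, with a summed intensity of the tested markers of 364 to 386 unstimulated and 1591 to 1621 in M1 cells. These were Ccr7, Fscn1 (57.2-fold), Zbtb46 (6.36-fold), Irf4 and Cd209a. Itgax (0.40) and Clec9a (−1.14) were not called, and Flt3 and Xcr1 did not pass the detection filter. These rises moved with those of the MHC class II, costimulatory and alternative activation genes, and their part in them was not tested.

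Granulocyte markers were higher in 4 of 7 and lower in 1, with summed intensities of the tested markers of 1125 to 1148 and 1399 to 1505. S100a9 was detected on the M1 arrays alone (7.26 and 7.05, at least 25.3-fold), while S100a8, whose product pairs with that of S100a9, was not called (9.85 and 9.87 against 10.05 and 10.22). Ltf, Camp and Ngp were the other markers called higher, with differences as fitted of 2.00, 3.37 and 4.60. The lowest differences of Camp and Ngp over the settings tried were 0.17 and 1.24. Mmp8 fell 3.32-fold and Mpo did not pass the filter. Of 8 T and NK cell markers on the array, Lck alone was tested (3.74-fold higher, a call lost with only the WT arrays and without either WT M1 array), and Cd3e, Cd3g, Cd3d, Cd4, Cd8a and Ncr1 did not pass the filter. None of 5 B cell markers passed it, and of 6 fibroblast markers Pdgfrb was tested, undetected on all WT arrays and not called. Of 8 mast cell and basophil markers, 4 were tested and 2 called higher, Gata2 (3.56-fold) and Prss34, which no WT array detected, with summed intensities of those tested of 46 to 52 and 130 to 157 and Cpa3, the carboxypeptidase of mast cells, not called (0.57). Of 6 erythroid and megakaryocyte markers 3 were tested, of which Pf4, a platelet chemokine that macrophages also express, fell 4.27-fold, Itga2b was called higher with 1 M1 array detected, and Hbb-b1 was not called. The part of these cells in the gene lists above was not tested. Reference genes were not flat: of 10 tested, 5 were higher and 1 lower, with Actb at 0.87, Gapdh at 0.38, Hprt at −0.64 and Tbp at −0.13 (not called). These counts stand against 20.8% and 14.3% of all tested probes.

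The WT response was set against that of the arrays labelled iNOS-/- as a difference of differences. It was called for 5829 of the 13868 probes (42.0%). Among the 40 probes named by size above, it was called for 28 (70.0%), and for 23 of these the iNOS-/- response was smaller than the WT response or opposite in sign. For Tnf it was not called, at 0.074 ± 0.19 (SE, adjusted p = 0.782). Asb2 read a mean of 9.86 on the iNOS-/- unstimulated arrays against 2.82 on the WT unstimulated arrays, and 9.33 against 9.79 in M1 cells. For Cd40 the unstimulated means were 8.91 on the iNOS-/- arrays and 4.07 on the WT arrays, and the M1 means 14.14 and 12.40. The smaller Cd40 rise in iNOS-/- cells thus went with a higher unstimulated level and not with a lower M1 level. The named genes were chosen for a large WT change, and the share called among them is a description.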

How the data were processed

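RNA of 8 samples in 4 groups was measured on Illumina mouse bead arrays (MouseRef-8 in the file, MouseWG-8 in the methods). The authors deposited the intensity of each of 25697 probes, not normalized between arrays per the file header, and a detection p-value, the share of negative controls brighter than the probe. Undetected probes lie around 0, so no further background was subtracted. The submitters' processing notes name GenomeStudio and limma 3.14.4. After the study's rank-invariant normalization, arrays were put on the scale of the mean array through rank-invariant probes (rank change under 0.05, ranks between 0.5 and 0.9 of all; robust line, MASS 7.3.60.0.1), values under 1 were set to 1 (the methods replace negative values only) and log2 was taken. Probes detected (p under 0.05) on at least 2 arrays were fitted in limma 3.58.1 under R 4.3.3 (lmFit, eBayes; 8 arrays, 4 groups), with Benjamini-Hochberg adjustment over 13868 probes. The procedure was tested on simulated data.

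A gene is given by its probe with the highest mean over the WT arrays. Where both arrays of a group were undetected, the fold is a bound against the higher of each array's lowest detected value and the probe's own value. Symbols were updated through Entrez identifiers with RefSeq (92.6% of probes). Genes are named where they have 1 of the 10 largest rises, falls or bounds each way (called, with no overlap between groups), or belong to a gene list drawn from general knowledge. The lists were chosen with earlier results of these data known. A few list members are counted but not reported here by name. Alternatives were neqc, quantile normalization, an intercept, a floor of 16, no or a stricter detection filter, WT arrays only, the replicate block, an intensity trend, a 2-fold minimum, 1 probe per gene, and each array left out.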

Additional observations from a re-analysis of the deposited data

Results flagged for a closer look

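For 28 of the 40 probes named by size, the response of the arrays labelled iNOS-/- differed from that of the WT arrays at an adjusted p of limma under 0.05, as it did for 42.0% of all tested probes. Values are the iNOS-/- response minus the WT response on the log2 scale, so a negative value is not by itself a lower M1 level. Among the largest WT rises, these were −8.16 for Asgr2, −7.50 for Asb2, −3.58 for Serpina3g, −3.09 for Cd40, −2.29 for Ccnd2 and −0.85 for Gbp5, and 2 were positive, 0.91 for Oasl1 and 0.80 for Cxcl1. Among the rises from undetected, they were −10.53 for Adam23, −6.70 for Dpp4, −5.68 for Il2ra, −4.70 for Apol7c, −3.74 for the second Cd40 probe and −1.66 for Tnfsf15. Among the largest falls, they were 2.43 for Apoe, 2.21 for Mamdc2, 1.75 for Nr1d2, 1.30 for Cxcr4, −1.67 for Lrrc14b and −2.40 for Dbp. Among the falls to undetected, they were 5.24 for Fam110c, 4.67 for Nnmt, 4.52 for Gm14461, 4.09 for Prss46, 3.25 for Fbxo32, 1.39 for Coa7, 1.37 for Prokr1 and −0.80 for Thbd. For Adam23 the iNOS-/- means were 9.98 unstimulated and 7.78 in M1 cells, against undetected and 9.16 in WT cells. Where a group was undetected the size of the difference depends on the floor. For the falls here, the unstimulated mean on the iNOS-/- arrays was below that on the WT arrays (Apoe, 6.87 against 11.52). For the rises it was above, except for Cxcl1 (6.22 against 6.33). The part of these unstimulated levels in the differences was not tested.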

How the results depend on the processing

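Under all 19 alternatives tried for the WT comparison, the direction of the 4869 calls held wherever the probe was called again, with 1 exception (with an intercept). The count lay between 3770 and 6177 under the other settings, and fell to 2102 with a 2-fold minimum. Leaving out 1 array gave 3134 to 4881, the lowest without WT unstimulated replicate 2, with 3156 without WT unstimulated replicate 1 and 3159 without WT M1 replicate 2; with 1 array in a group its spread is taken from the others. With the replicate block, 4296 were called. The deviations of arrays with the same replicate number correlated between −0.04 and 0.02 across probes. This gave no sign of pairing by number, but cannot show that such arrays shared no mouse, culture or batch, which the labels do not give. The count for the difference in response stayed within 1.5 times of 5829 (5326 with the replicate block, 7078 with neqc). Of 312 called probes of named genes, 245 were called under every setting and 0 changed sign. List medians changed sign under a scaling or the floor for 4 lists, among them the prostaglandin and the scavenger receptor genes. Signals near background limit the bounds.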

Other observations

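Several genes outside the lists, chosen after their values were seen, changed by as much as the listed ones. Il4i1, a secreted amino acid oxidase of antigen-presenting cells, went from 6.20 and 6.28 on the WT unstimulated arrays to 12.15 and 12.17 on the WT M1 arrays (60.6-fold, adjusted p = 1.16e-05). Ptx3, a soluble pattern recognition protein, rose 22.2-fold, and Aldh1a2, which makes retinoic acid, 27.5-fold. Surface receptors were among them, with Adra2a, an adrenergic receptor gene, up 42.2-fold and Ffar2, a receptor for short-chain fatty acids, up 22.1-fold. Of the falls, Timp2, an inhibitor of matrix metalloproteinases, went from 10.08 and 10.09 to 7.81 and 7.83 (4.8-fold, adjusted p = 2.24e-04). Ms4a7 fell 3.97-fold, the prostaglandin E2 receptor gene Ptger2 4.4-fold, the fatty acid-binding protein gene Fabp5 3.75-fold and the peroxidase gene Gpx3 3.69-fold.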
